A study of Homo sapiens with 14 samples.

Results

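The clustered protocadherin genes are 53 of the 20033 protein-coding genes of GENCODE 44, taken as those on chromosome 5 whose symbol starts with PCDHA, PCDHB or PCDHG. KLF4 ChIP-seq peak lists of BEAS-2B cells, an established human bronchial epithelial cell line, were searched for KLF4 summits at these genes. There were 4 libraries, 1 per condition. They came from WT cells without arsenic (WT control), WT cells given 1 µM As3+ for 6 h (WT As3+), Nrf2 KO cells without arsenic (Nrf2 KO control) and Nrf2 KO cells given the same treatment (Nrf2 KO As3+). Both KO and WT cells had been through CRISPR editing with guides against exon 2 of the Nrf2 gene, with colonies that lacked Nrf2 protein taken as KO and colonies that still made it as WT. No condition was repeated, so differences between conditions have no replicate error and no test was run on them. Clopper-Pearson intervals at 95% are given for shares and cover counting error only. Peak lists hold no transcript levels, so neither the epithelial identity of the cells nor the expression of the protocadherins could be checked here.

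Protocadherins of the cluster are cell-surface proteins of the cadherin superfamily that are best known from neurons, where each cell uses a few of the promoters and the resulting set of proteins lets neurites tell self from non-self. In the alpha and gamma groups each gene has its own long first exon, which encodes the extracellular, transmembrane and first cytoplasmic parts, and this exon is spliced to constant exons shared by the whole group. The beta genes have only their own exon. Most of the variable promoters carry a conserved element with the core CGCT, and CTCF and cohesin loop chosen promoters to distant enhancers. The C-type genes at the 3′ ends of the alpha and gamma groups have promoters of a different kind and are used more uniformly between cells. KLF4 is a zinc finger factor that binds GC-rich DNA with a CACCC core.

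All 53 genes lie on the plus strand between positions 140786136 and 141512977 of chromosome 5 in GRCh38, a stretch of 727 kb. The 15 PCDHA genes span 226 kb, the 16 PCDHB genes 198 kb and the 22 PCDHG genes 182 kb, with gaps of 39.0 kb between alpha and beta and 81.1 kb between beta and gamma. The PCDHG genes comprise 12 of type A, 7 of type B and 3 C-type genes, and with PCDHAC1 and PCDHAC2 there are 5 C-type genes in all. Neighbouring TSS were 3374 to 85119 bp apart, with a median of 6349 bp, so windows of 1 kb on either side of a TSS do not overlap. First exons measured 2470 to 7973 bp, with a median of 2601 bp.

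The DNA just upstream of a few TSS is shown first, because the promoters of the cluster share a short element and differ in base composition from most promoters. Each line gives up to 100 bases before the TSS on the plus strand of hg38, cut short where another transcript's UTR begins, with CGCT on either strand in capitals. The genes are 1 alternate alpha gene, 3 beta genes, 1 gamma A gene and 2 C-type genes.
PCDHA2, chr5:140794752-140794851: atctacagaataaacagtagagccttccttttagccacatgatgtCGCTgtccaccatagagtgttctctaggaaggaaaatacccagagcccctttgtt
PCDHB2, chr5:141094515-141094605: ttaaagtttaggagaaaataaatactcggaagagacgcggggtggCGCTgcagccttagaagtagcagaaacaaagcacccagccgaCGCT
PCDHB7, chr5:141172544-141172643: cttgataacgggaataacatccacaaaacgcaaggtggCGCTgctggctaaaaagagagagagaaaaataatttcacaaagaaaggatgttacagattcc
PCDHB12, chr5:141208619-141208696: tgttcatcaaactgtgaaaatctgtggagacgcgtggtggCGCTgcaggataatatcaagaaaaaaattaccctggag
PCDHGA4, chr5:141354921-141355020: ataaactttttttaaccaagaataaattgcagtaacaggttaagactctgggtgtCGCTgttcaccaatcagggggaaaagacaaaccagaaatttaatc
PCDHAC2, chr5:140966376-140966469: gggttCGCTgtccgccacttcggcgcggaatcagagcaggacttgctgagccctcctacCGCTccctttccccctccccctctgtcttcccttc
PCDHGC5, chr5:141488981-141489080: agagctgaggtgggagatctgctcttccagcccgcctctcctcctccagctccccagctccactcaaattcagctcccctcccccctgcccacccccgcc

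In the 300 bases from 250 upstream of each TSS, the word CGCT occurred on either strand in 51 of the 53 members (96.2%), beside 82.4% of all protein-coding promoters, and PCDHA9 and PCDHGC5 had none. The longer word GNNGGCGCT, which ends in CGCT and resembles part of the CTCF consensus, was found in 14 of the 16 PCDHB promoters, 2 of the 22 PCDHG promoters and 0 of the 15 PCDHA promoters, beside 12.7% of all promoters. The KLF word, CCACACCC or CCACGCCC, was in 0 of the 53 promoter windows, beside 9.68% of all promoters, and the GC box CCCCGCCCC was likewise in 0 of 53, beside 24.5%. Over the wider 2 kb around the TSS, 7 of the 53 members (13.2%) held the KLF word, beside 39.3% of all genes. A word match is a description of the letters and not a binding site.

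KLF4 summits near the promoters of the cluster were few. In the WT As3+ list 4 of the 53 members had a summit within 1 kb of the canonical TSS, a share of 7.55% (2.09% to 18.2%), where 49.3% of all protein-coding genes had one. In the Nrf2 KO control list 10 members had one, 18.9% (9.44% to 32.0%), beside 63.6% of all genes. The WT control and Nrf2 KO As3+ lists had a summit at 0 of the 53 members, which allows a share of up to 6.72%, beside 0.694% and 0.18% of all genes. Those 2 lists are short, at 751 and 130 peaks against 29870 in the WT As3+ and 76545 in the Nrf2 KO control list, so 0 of 53 lies close to the share of all genes. The lists hold no measurement that checks which Nrf2 KO library was treated, and every statement on As3+ in Nrf2 KO cells rests on the labels as given.

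**Figure D1:**
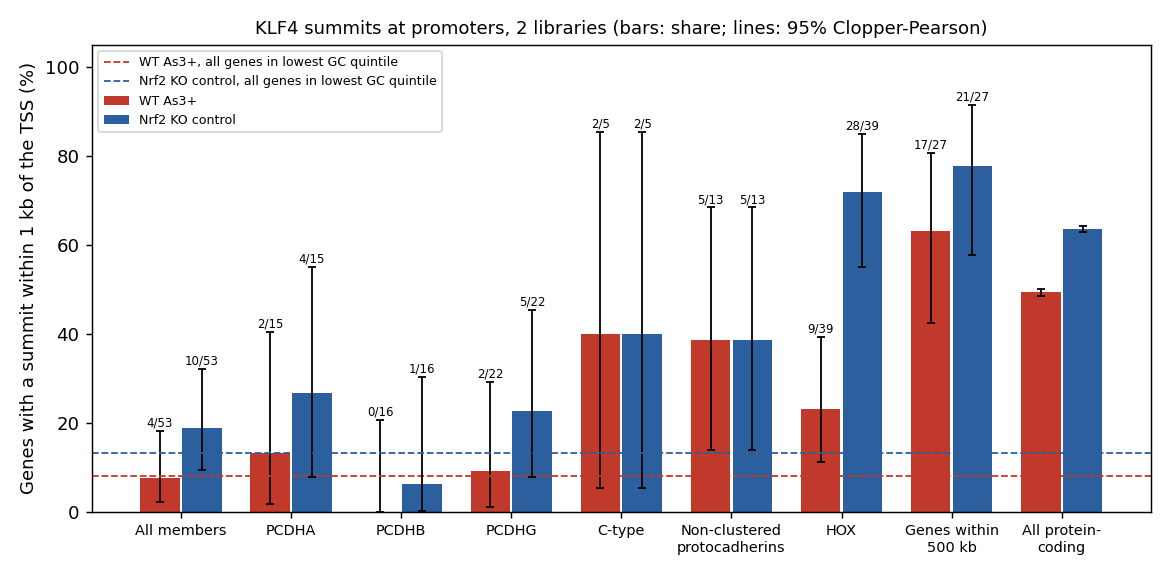
Percentage of genes with a KLF4 summit within 1 kb of the TSS (y axis) in the WT As3+ (red) and Nrf2 KO control (blue) libraries for the members, their groups and comparison sets, with the counts above the bars and exact 95% intervals as lines. Dashed lines mark all genes in the lowest quintile of GC content, at 8.08% and 13.1%, near which the bars of all members (7.55% and 18.9%) lie, while the bars of all protein-coding genes stand at 49.3% and 63.6%.

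By group, the WT As3+ list had a promoter summit at 2 of 15 PCDHA, 0 of 16 PCDHB and 2 of 22 PCDHG genes, and the Nrf2 KO control list at 4 of 15, 1 of 16 and 5 of 22. The intervals of the 3 groups overlapped in both lists, as for the Nrf2 KO control list 7.79% to 55.1% for PCDHA, 0.158% to 30.2% for PCDHB and 7.82% to 45.4% for PCDHG. The members without a promoter summit in either list were 42 of 53, or 79.2%, beside 32.2% of all genes. PCDHAC1, PCDHAC2 and PCDHGA7 had a promoter summit in both lists, which is 5.66% of the members beside 45.1% of all genes. PCDHGB5 had one in the WT As3+ list alone, beside 4.19% of all genes, and 7 members (PCDHA2, PCDHA7, PCDHB5, PCDHGA4, PCDHGA6, PCDHGA10 and PCDHGB7) in the Nrf2 KO control list alone, beside 18.5%.

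Genes around the cluster had promoter summits more often. Of the 27 other protein-coding genes with a TSS within 500 kb of the cluster, 17 had a promoter summit in the WT As3+ list and 21 in the Nrf2 KO control list. Over all 829 protein-coding genes of chromosome 5 that are not members, these 27 included, the shares were 54.3% and 69.6%. Protocadherin genes outside the cluster, which encode related adhesion proteins from single-gene loci, had a summit in 5 of 13 cases in each of the same lists. The interval of 13.9% to 68.4% overlaps that of the members in both lists. PCDH1 and PCDH12 are counted both here and among the 27 neighbouring genes. Among the 39 HOX genes, another family in tandem arrays, 9 had a summit in the WT As3+ and 28 in the Nrf2 KO control list. The HOX interval overlaps that of the members in the WT As3+ list (11.1% to 39.3%) and lies above it in the Nrf2 KO control list (55.1% to 85.0%).

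Across all genes the share with a promoter summit rose with the GC content around the TSS, and most members lie at the AT-rich end. The 2 kb around the TSS had a GC content of 37.3% to 57.2% over the members, with a median of 42.7%, beside 56.0% for all protein-coding genes. In the lowest quintile of all genes, from 27.1% to 48.3% GC, lay 48 of the 53 members. In that quintile 8.08% of all genes had a promoter summit in the WT As3+ list and 13.1% in the Nrf2 KO control list, and the 48 members had 2 (4.17%, interval 0.509% to 14.3%) and 8 (16.7%, interval 7.48% to 30.2%). Both intervals include the share of all genes of that quintile. The shares of all genes rose over the 5 quintiles to 74.3% and 89.3%. The members did not show such nearness to other genes when the ratio of observed to expected CpG was used instead, for which their median was 0.598 and that of all genes 0.636. In the quintile of this ratio from 0.297 to 0.576, 0 of 20 members had a promoter summit in the WT As3+ and 1 in the Nrf2 KO control list, beside 34.2% and 53.0% of all its genes. From 0.576 to 0.685 they were 3 and 7 of 15 members, beside 59.7% and 77.4%, and from 0.685 to 0.777 they were 0 and 1 of 12, beside 70.8% and 84.6%. The lowest quintile held 2 members with 0 summits in either list, and the highest held 4 members, of which 1 had a summit in each list.

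**Figure D2:**
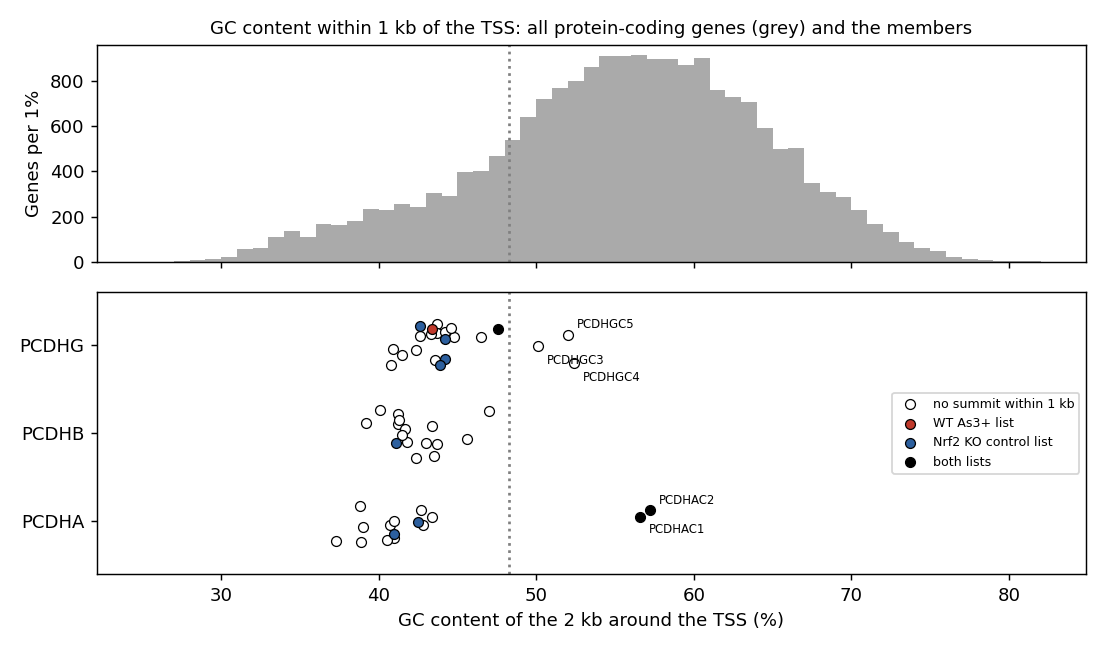
GC content of the 2 kb around the TSS (x axis, percent) for all protein-coding genes (top, genes per 1% bin) and for each member by group (bottom, points spread vertically for legibility), filled by the lists that have a KLF4 summit within 1 kb. The dotted line marks the upper bound of the lowest quintile, 48.3%. PCDHAC1 and PCDHAC2 lie at 56.6% and 57.2%, to the right of the other members, and have a summit in both lists.

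The 5 C-type genes had the highest GC content of the members, from 50.1% to 57.2%. PCDHAC1 (56.6%) and PCDHAC2 (57.2%), the 2 members in the middle quintile, both had promoter summits in both lists, where 57.5% of all genes of that quintile had one in the WT As3+ and 74.9% in the Nrf2 KO control list. PCDHGC3, PCDHGC4 and PCDHGC5, at 50.1%, 52.4% and 52.0%, were in the next quintile up from the lowest and had no promoter summit in any of the 4 lists, where 39.0% and 54.7% of all genes of that quintile had one. PCDHB1, a beta gene whose promoter lacks the longer word and whose exon is the longest of the cluster, had 47.0% GC and no promoter summit in any list. With 5 C-type genes the share of 40.0% in each long list has an interval of 5.27% to 85.3%, which overlaps those of the other 48 genes (0.509% to 14.3% and 7.48% to 30.2%).

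PCDHAC1 (TSS at 140926299) had a pair of summits in the WT As3+ list. The stronger lay in the peak chr5:140925825-140926228, 228 bp before the TSS, and had a fold enrichment of 6.08 over local background and 10 fragments over the summit (exact 95% Poisson interval 4.80 to 18.4). The other lay 409 bp downstream, in the 5′ UTR, with a fold of 4.52 and 11 fragments. The Nrf2 KO control peak at chr5:140926256-140926758 had its summit 251 bp downstream of the TSS and 158 bp from the second of these, with a fold of 2.78 and 7 fragments. It ranked at 99.6% of that list by −log10 p, so it is among its weakest peaks.

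PCDHAC2 (TSS at 140966476) carried the strongest cluster peak of the Nrf2 KO control list. This peak, chr5:140966223-140966885, had its summit 177 bp downstream of the TSS in the 5′ UTR. It had a fold of 7.50 and 14 fragments (7.65 to 23.5) over a background of 0.999. Its −log10 p of 12.5 ranked it at 4.39% of that list. A further Nrf2 KO control summit lay 642 bp downstream, in the coding part of the exon, with a fold of 4.06 and 6 fragments. The WT As3+ peak had its summit 131 bp downstream of the TSS, 46 bp from the strong one, with a fold of 3.76 and 10 fragments. Fold values are not compared between lists, because the backgrounds of the libraries differ and their depths were not measured.

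Among the other members, PCDHGB5 and PCDHGA7 had the remaining promoter summits of the WT As3+ list. The PCDHGB5 summit lay 58 bp before its TSS, within an intron of the preceding genes, with a fold of 5.08 and 8 fragments, and 78.1% of the 75-base windows within 1 kb of this TSS occur once in the genome. The PCDHGA7 summit lay 314 bp downstream of the TSS, in coding sequence, with a fold of 3.71 and 7 fragments. The Nrf2 KO control summit of PCDHGA7 was elsewhere, 721 bp before the TSS (fold 3.69, 5 fragments), so the gene had a promoter summit in both lists without a shared peak.

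In the Nrf2 KO control list the strongest promoter summits after that of PCDHAC2 were those of PCDHGA4, PCDHA2, PCDHB5 and PCDHGB7. The PCDHGA4 summit lay 241 bp downstream of the TSS (fold 5.17, 7 fragments). The PCDHA2 summit lay 382 bp downstream (fold 4.85, 7 fragments). PCDHB5 was the only beta gene with a promoter summit in any list, 680 bp downstream of its TSS (fold 4.38, 6 fragments), and the PCDHGB7 summit lay 198 bp downstream (fold 4.11, 7 fragments). All of these were in coding sequence of the first exon.

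Counted over the whole 727 kb, the WT As3+ list had 8 peaks, the Nrf2 KO control list 27, and the WT control and Nrf2 KO As3+ lists 0. Peak density was 11.0 per Mb in the WT As3+ list, beside 9.67 per Mb over the genome, and 37.1 per Mb in the Nrf2 KO control list, beside 24.8. The 500 kb on either side, which hold the 27 neighbouring genes, had 26.0 and 77.0 peaks per Mb. By group, the WT As3+ list had 3 peaks in alpha, 1 in beta and 3 in gamma, and the Nrf2 KO control list had 12, 2 and 12. The beta group, with 198 kb, thus held 3 of the 35 peaks of both lists. The alpha-beta gap had 0 peaks, and the beta-gamma gap held 1 of each list, at TAF7, a subunit of the TFIID complex, and at SLC25A2, a mitochondrial carrier. Neither gene is a member, and both peaks count toward the totals and densities of the cluster. The TAF7 peak had the largest −log10 p of the WT As3+ cluster peaks, 9.16.

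**Figure D3:**
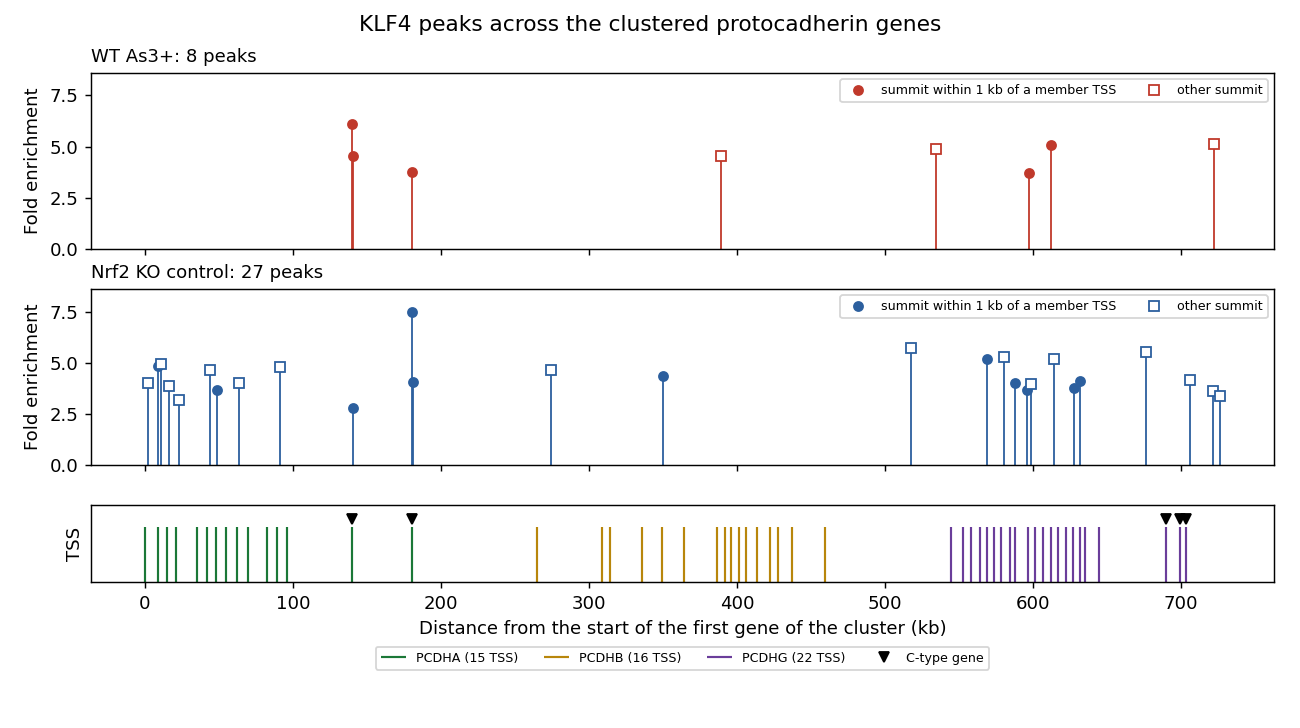
Fold enrichment at the summit (y axis) of each KLF4 peak of the WT As3+ (top, 8 peaks) and Nrf2 KO control (middle, 27 peaks) lists against the distance from the start of the first gene (x axis, kb), with the TSS of the 53 members below. Filled circles are summits within 1 kb of a member TSS, and triangles mark the 5 C-type genes. Most peaks lie in the alpha and gamma groups, and the tallest one of the Nrf2 KO control list stands at PCDHAC2.

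Ranked by −log10 p within their lists, these peaks had a median position of 52.1% from the top in the WT As3+ and 73.0% in the Nrf2 KO control list. Their median was 10 fragments in the WT As3+ and 6 in the Nrf2 KO control list, beside 10 and 7 over the whole lists. A −log10 q of at least 5 was reached by 2 of the 8 WT As3+ peaks, at PCDHAC1 and TAF7, beside 31.9% of that list, and by 1 of the 27 Nrf2 KO control peaks, at PCDHAC2, beside 21.1%. Fragment numbers of different libraries are not on one scale, because the lowest backgrounds differed, at 0.757 (WT As3+) and 0.491 (Nrf2 KO control) for the long lists and 1.90 (WT control) and 1.64 (Nrf2 KO As3+) for the short ones. What a site with the signal of these peaks would give in the WT control and Nrf2 KO As3+ libraries was not tested.

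**Figure D4:**
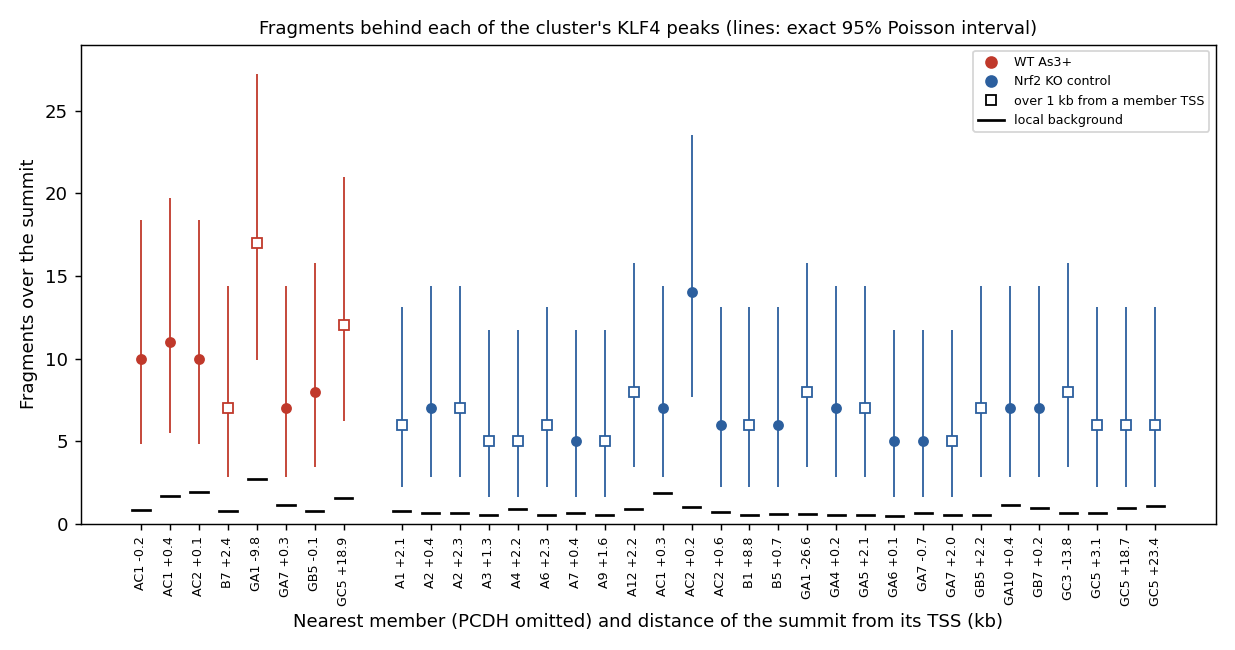
Fragments over the summit (y axis) with exact 95% Poisson intervals for the 8 WT As3+ (red) and 27 Nrf2 KO control (blue) peaks of the cluster, in genomic order and named by the nearest member and the distance from its TSS (x axis). Short black bars give the local background, from 0.491 to 2.70 fragments. The numbers run from 7 to 17 in the WT As3+ and from 5 to 14 in the Nrf2 KO control list, and they are not on one scale between the libraries.

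Of the 8 WT As3+ peaks 3 overlapped a Nrf2 KO control peak by at least 1 bp, 37.5% (8.52% to 75.5%), beside 55.6% of that list over the genome. They made up 11.1% (2.35% to 29.2%) of the 27 Nrf2 KO control peaks, beside 21.7%. The shared places were the promoters of PCDHAC1 and PCDHAC2 and a site in the last intron of the gamma genes, 18917 bp downstream of the PCDHGC5 TSS between the constant exons, with a fold of 5.12 and 12 fragments in the WT As3+ list. The Nrf2 KO control summit at this intron lay 186 bp away, with a fold of 3.64 and 6 fragments.

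Most Nrf2 KO control peaks of the cluster lay in variable first exons. This was so for 20 of the 27, of which 17 were in coding sequence and 3 in the 5′ UTR, and for 4 of the 8 WT As3+ peaks. The share of peaks in first exons over the whole lists was not computed, so this placement is not shown to be particular to the cluster. Of the 20, 10 lay more than 1 kb from the TSS, 1299 to 2308 bp downstream with a median of 2125.5 bp and 192 to 1235 bp before the end of the exon. They fell in PCDHA1, PCDHA2, PCDHA3, PCDHA4, PCDHA6, PCDHA9 and PCDHA12 of the alpha group and in PCDHGA5, PCDHGA7 and PCDHGB5 of the gamma group, and none of these 10 genes belongs to the beta group. The 1 WT As3+ summit of this kind lay in PCDHB7, 2364 bp downstream of its TSS, with a fold of 4.52 and 7 fragments. No other member had a summit so placed in either list.

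Base composition changed sharply along these exons. Averaged over the 48 genes that are not C-type, the GC content was 31.6% in the 100 bases centred 150 bp upstream of the TSS, 58.5% at 250 bp downstream, 38.6% at 1050 bp, 68.4% at 2050 bp and 30.4% at 2650 bp, just past the end of the median exon. The number of CG pairs per 100 bp went from 1.52 upstream to 10.6 at 2050 bp. Between 1.5 and 2.4 kb downstream of the TSS, where this average was highest, lay 9 of the 10 distal exon summits of the Nrf2 KO control list and the 1 of the WT As3+ list. In PCDHB7, whose exon of 3740 bp is longer than the median, that summit was still 1375 bp before the exon end. The bounds of 1.5 and 2.4 kb were set by hand. A distal exon summit can only lie between 1 kb and the exon end, at a median of 2601 bp. The share of summits that this stretch would hold under even placement was not computed. The windows of 200 bp around the 10 summits had 55.0% to 70.5% GC, with a median of 65.8%, and 9 to 25 CG pairs.

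**Figure D5:**
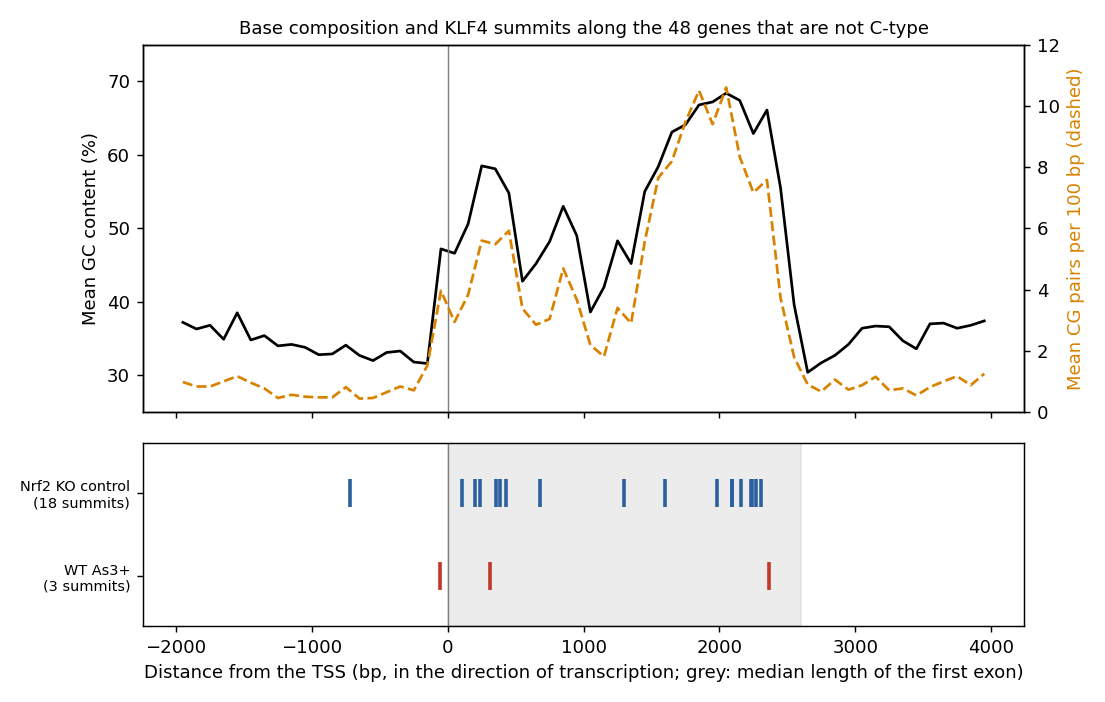
Mean GC content (solid line, left axis, percent) and mean number of CG pairs (dashed line, right axis, per 100 bp) in 100-bp steps along the distance from the TSS (x axis, bp) over the 48 members that are not C-type, above the summits of both long lists (ticks) and the median first exon of 2600.5 bp (grey). The 18 Nrf2 KO control summits lie mainly near the 2 maxima of GC content, within 0.7 kb of the TSS and around 2 kb.

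The distal exon windows are shown because most Nrf2 KO control peaks beyond the promoters fall there. Each line is 100 bases of coding sequence around the summit, plus strand of hg38, with every CG pair in capitals. The first 5 are Nrf2 KO control summits and the last, of PCDHB7, is from the WT As3+ list.
PCDHA2, chr5:140797110-140797209: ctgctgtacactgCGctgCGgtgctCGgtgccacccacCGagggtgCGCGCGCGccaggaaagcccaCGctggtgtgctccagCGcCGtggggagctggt
PCDHA6, chr5:140830182-140830281: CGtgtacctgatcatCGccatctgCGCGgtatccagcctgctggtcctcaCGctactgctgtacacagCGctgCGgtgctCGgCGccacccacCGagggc
PCDHA12, chr5:140877488-140877587: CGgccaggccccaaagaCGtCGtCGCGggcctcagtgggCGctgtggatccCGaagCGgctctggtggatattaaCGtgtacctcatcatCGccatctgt
PCDHGA5, chr5:141366205-141366304: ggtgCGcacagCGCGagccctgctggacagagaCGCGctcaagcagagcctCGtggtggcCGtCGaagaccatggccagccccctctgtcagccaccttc
PCDHGB5, chr5:141400140-141400239: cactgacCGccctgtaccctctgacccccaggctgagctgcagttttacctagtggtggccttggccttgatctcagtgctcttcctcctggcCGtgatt
PCDHB7, chr5:141174958-141175057: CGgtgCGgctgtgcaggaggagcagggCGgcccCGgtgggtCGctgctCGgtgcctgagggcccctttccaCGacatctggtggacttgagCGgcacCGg

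In these 100 bases the number of CG pairs ran from 2 in PCDHGB5 to 11 in PCDHA2, and the GC content from 59.0% to 72.0%. Long first exons of other genes also carried such summits. Among the 403 other protein-coding genes with a first exon of 2 kb or more, 11.2% had a summit in the exon more than 1 kb from the TSS in the WT As3+ list and 23.3% in the Nrf2 KO control list, beside 1 and 10 of the 53 members, which is 1.89% (0.0478% to 10.1%) and 18.9% (9.44% to 32.0%). The interval of the members includes the 23.3% in the Nrf2 KO control list and lies below the 11.2% in the WT As3+ list. That 11.2% has its own interval, 8.26% to 14.7%, which overlaps the interval of the members. The median first exon was 2601 bp for the members and 2962 bp for the other genes. First exons of the cluster resemble each other, and the share of 75-base windows that occur once in the genome had a median of 93.7% over the exons, down to 64.0%.

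In windows of 200 bp around the summits the median GC content was 65.8% for the 8 WT As3+ peaks and 63.0% for the 27 Nrf2 KO control peaks, beside 64.5% and 61.5% over the whole lists, and the median number of CG pairs was 14 and 15, beside 10 and 7. The KLF word occurred in 1 of the 8 windows and 4 of the 27, beside 10.3% and 9.27% of all windows of the lists. GNNGGCGCT was found in 2 of the 8 and 6 of the 27, beside 6.83% and 4.71%, and the GC box and the AP-1 word (TGACTCA or TGAGTCA) in 0 of them. The windows with GNNGGCGCT were at PCDHAC1 and PCDHGB5 in the WT As3+ list. In the Nrf2 KO control list they were at PCDHA1, PCDHA4, PCDHA6, PCDHA12, PCDHAC1 and PCDHAC2. None was at a beta gene, the group whose promoters mostly held this word. Because first exons of the cluster resemble each other, these windows are not independent of one another. The 4 places with the KLF word are given because they are the only ones under a cluster summit, in 30 bases each with the word in capitals, which at PCDHAC2 reads on the minus strand. The PCDHAC2 word lies 220 bp downstream of the TSS, under summits of both lists, and the other 3 lie under Nrf2 KO control summits.
PCDHAC2, chr5:140966685-140966714: aggcggggcccGGGCGTGGggcacggctgg
PCDHGA4, chr5:141355216-141355245: gctcgcccagaCCACACCCggctgctccag
PCDHGA7, chr5:141381972-141382001: ggcgcgcgccaCCACGCCCggataattttg
PCDHGC5, chr5:141492261-141492290: gcacgggctcgCCACGCCCcgccaacacgt

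Outside first exons and promoters, the gamma group had further Nrf2 KO control peaks. A summit 13793 bp upstream of PCDHGC3, in the long intron of the gamma A and B genes, had a fold of 5.54 and 8 fragments, and one 3138 bp downstream of the PCDHGC5 TSS, in its intron 1, had a fold of 4.18 and 6 fragments. A summit 23391 bp downstream of that TSS lay in the 3′ UTR of constant exon 4, with a fold of 3.40 and 6 fragments. Just past the end of the cluster, both long lists had a peak, with summits 388 bp (WT As3+) and 385 bp (Nrf2 KO control) beyond it.

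The genes of factors that act on protocadherin choice or on their chromatin were looked at in the same way. A list of 19 of them, which holds the CTCF and cohesin subunit and loader genes, DNA methyltransferases and chromatin regulators of the cluster, had a promoter summit in 15 cases in the WT As3+ list and 17 in the Nrf2 KO control list, and in 0 cases in the WT control and Nrf2 KO As3+ lists. The exceptions in both long lists were DNMT3A, a de novo DNA methyltransferase, and SETDB1, a histone H3 lysine methyltransferase. NIPBL, the cohesin loader, and WIZ, a zinc finger partner of the G9a complex, had no WT As3+ summit but had a Nrf2 KO control summit. Beside these counts stand the 49.3% and 63.6% of all genes. The intervals of the 19 genes were 54.4% to 93.9% in the WT As3+ and 66.9% to 98.7% in the Nrf2 KO control list. Both include the shares of all genes in the highest GC quintile, 74.3% and 89.3%. The 19 genes were not compared with genes of like GC content.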

How the data were processed

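KLF4 ChIP-seq peak lists of 4 BEAS-2B libraries were used, 1 per condition as labelled, and the 10 other samples (H3K4me1, H3K27Ac and inputs) were not analysed here. The authors sequenced 75-nt reads, aligned them with BWA to GRCh38/hg38 and deposited 1 narrowPeak list per library. The peak caller is not given in the sources used here. The deposited lists hold a score, a fold enrichment ratio, and −log10 p and −log10 q values at each summit. Distinct intervals on the assembled chromosomes were counted. Fragments (n) and background (λ) were solved from fold = (n + 1)/(λ + 1) and a Poisson upper tail, with a misfit of at most 0.000405. Read totals were not used here, so depth was not measured. Fragments over the summits had medians of 25, 10, 7 and 19 in the WT control, WT As3+, Nrf2 KO control and Nrf2 KO As3+ lists. A signal under the threshold of a list is not seen in it.

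TSS are those of the Ensembl canonical transcripts of GENCODE 44. GC quintiles divide all 20033 protein-coding genes. Words were searched on both strands. Uniqueness is the share of 75-base windows found once in the genome. Members named are those with promoter summits in WT control or Nrf2 KO As3+ (none), the strongest 5 per long list, those in WT As3+ alone, the C-type genes and PCDHB1, and the 3 strongest peaks per list, while genes with exon summits, shared peaks or listed in counts were named after their values were seen. PCDH24, of the 14 non-clustered protocadherins listed, was not matched. Members and lists were chosen with earlier results of these data known. The fragment solution, the TSS window count, the overlap count and the count of 75-base window copies were tested on simulated data. The other steps had no such test. Python 3.11.15, numpy 2.4.6, scipy 1.17.1, pandas 2.3.3 and pysam 0.24.0 were used. Alternatives were other windows, TSS, thresholds and overlap definitions, and the restriction to unique promoters, which was added after seeing the data.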

Additional observations from a re-analysis of the deposited data

Results flagged for a closer look

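As3+ went with opposite changes in the number of members with a promoter summit in the 2 genotypes. In WT cells the number differed by 4 between As3+ and control, from 0 to 4, and in Nrf2 KO cells by -10, from 10 to 0. Over the whole cluster the number of peaks differed by 8 in WT cells, from 0 to 8, and by -27 in Nrf2 KO cells, from 27 to 0. These differences were not tested, since each condition has 1 library. The lists give no means to check the labels, and the directions in Nrf2 KO cells (76545 peaks labelled control, 130 labelled As3+) would turn if those libraries were interchanged. Over all protein-coding genes the share with a promoter summit moved the same ways, from 0.694% to 49.3% in WT and from 63.6% to 0.18% in Nrf2 KO cells.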

How the results depend on the processing

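No paired analysis was possible because each condition has 1 library and the results come from no test. For the WT As3+ and Nrf2 KO control lists and their shared peaks, 32 of 56 alternative values stayed within 1.5 times the main count or within its interval, and 24 moved. With −log10 q required to be 5 or more, members with a promoter summit fell to 1 in the WT As3+ and 1 in the Nrf2 KO control list, the cluster peaks to 2 and 1, the alpha peaks to 1 and 1, and the beta and gamma peaks to 0 and 0. In the 130 strongest peaks of each list all of these counts were 0. The share of peaks shared by both long lists was 37.5% and 11.1% with summits within 200 bp, but 0% in both directions with a reciprocal overlap of 50% or with a −log10 q of 5 or more in both. The count of members with a promoter summit ran from 8 (within 500 bp) to 12 (within 2 kb) in the Nrf2 KO control list under the other alternatives, and from 3 to 5 in the WT As3+ list. With the 41 members of at least 95% unique windows it was 3 and 8. Both short lists (WT control, Nrf2 KO As3+), whose main counts are 0, had counts of 0 under every alternative as well, which says little about stability. Over all genes the shares with −log10 q of 5 or more were 26.7% and 35.5%, and those of the members were 1.89% in each list. Small fragment numbers limit these results, since 26 of the 27 Nrf2 KO control peaks rest on 5 to 8 fragments. Whether this reflects depth was not tested.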
